A study of Rattus norvegicus with 2 samples.

Results

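The genes described here serve antigen presentation, the display of peptides to T cells on major histocompatibility complex (MHC) molecules. They are 9 genes of the 32623 in the count table: Cd74, RT1-Da, RT1-Db1, RT1-Ba, RT1-Bb, B2m, Tap1, Psmb8 and Psmb9. They were chosen by symbol as genes of this pathway, and each of the 9 symbols was found on 1 row of the table. The study sequenced single cells of the common carotid arteries of 12-week-old male Sprague-Dawley (SD) rats. The right artery had been injured with a balloon catheter 28 days before (the case library), and the left artery of the same 2 rats was left uninjured (the control library). The arteries of the 2 rats were pooled, so there was 1 library per group, no replicate and no test of the injury. A difference between the libraries cannot be told apart from a difference between 2 single preparations.

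MHC class I molecules sit on nearly all nucleated cells. Their heavy chain pairs with beta-2 microglobulin (B2m), and it carries peptides that the proteasome cuts in the cytosol and that the TAP transporter, of which Tap1 is a subunit, pumps into the endoplasmic reticulum. Interferon-gamma exchanges catalytic subunits of the proteasome for inducible ones, among them Psmb8 and Psmb9, to give the immunoproteasome. MHC class II molecules present peptides from taken-up material and are typical of dendritic cells, B cells and macrophages. In the rat, RT1-D is a pair of an alpha chain (RT1-Da) and a beta chain (RT1-Db1), and RT1-B is a pair of RT1-Ba and RT1-Bb. Cd74, the invariant chain, fills the class II groove until a peptide is loaded. The transactivator Ciita switches class II genes on through a complex that sits on promoter elements called the X box and the Y box.

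The promoters of the 4 RT1 class II members are shown because their letters carry the Y box, and those of RT1-Da and RT1-Db1 the X box as well. The RefSeq promoter table (build GRCr8, from 250 bases before to 50 after each start) held all 9 members. The Y box was searched as ATTGG and the X box as G, AAC, G and TG, each separated by 1 base of any kind, on both strands. The 2 motifs did not overlap in these stretches. Of 33469 promoters, 3.46% held the X box and 37.5% the Y box in the 300-base window. Each line gives 100 bases, from 125 to 26 bases before the start, 5′ to 3′ on the gene's strand, and capitals mark the motifs in that orientation. The stretches lie at chr20:4515290-4515389 (plus strand) for RT1-Da, chr20:4560188-4560287 (minus) for RT1-Db1, chr20:4576932-4577031 (plus) for RT1-Ba and chr20:4604144-4604243 (minus) for RT1-Bb.
RT1-Da: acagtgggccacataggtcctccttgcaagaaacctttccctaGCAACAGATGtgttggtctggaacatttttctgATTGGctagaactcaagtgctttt
RT1-Db1: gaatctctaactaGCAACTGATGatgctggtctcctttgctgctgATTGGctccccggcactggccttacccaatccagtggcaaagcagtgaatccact
RT1-Ba: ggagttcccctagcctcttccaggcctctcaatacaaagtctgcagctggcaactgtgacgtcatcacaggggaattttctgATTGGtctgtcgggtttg
RT1-Bb: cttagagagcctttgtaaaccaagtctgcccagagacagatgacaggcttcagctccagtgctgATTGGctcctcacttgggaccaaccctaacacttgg
RT1-Da and RT1-Db1 held both motifs, with the first bases of the X box and the Y box 33 and 32 bases apart. Only 0.114% of all promoters held both in that 100-base stretch. RT1-Ba and RT1-Bb held the Y box 43 and 61 bases before the start, a feature of 9.8% of promoters in this stretch and orientation, and their stretches did not match the X box letters. B2m, the class I light chain, is shown beside them as the most counted class I member, and it held a Y box together with an interferon-stimulated response element (ISRE, searched as GAAA, any 2 bases and GAAA again, and found in 3.92% of promoters), at chr3:129549175-129549274 (plus strand), 155 to 56 bases before the start.
B2m: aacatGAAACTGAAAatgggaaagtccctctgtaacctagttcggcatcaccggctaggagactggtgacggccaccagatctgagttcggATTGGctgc
The Y box letters were found in 8 of the 9 members, Tap1 being the exception, so Psmb8 too held both motifs. Tap1 and Psmb8 also held the ISRE letters, on the other strand, 121 and 4 bases before the start. Psmb8 alone held the letters TTCNNNGAA of a gamma-activated site, which 8.87% of promoters held. These matches describe the letters and are not evidence of binding.

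The libraries held 3321 barcodes and 24968329 UMIs (unique molecular identifiers, counted molecules) in the control group and 5656 barcodes and 28232614 UMIs in the case group. After filtering, 2742 control and 4930 case cells remained, with median depths of 8880 and 5156 UMIs. They formed 18 clusters, made without the members and the other genes of the pathway. The clusters were named from marker genes as VSMC-like (vascular smooth muscle cells; 1011 control and 2455 case cells), fibroblast-like (730 and 1505), endothelial-like (64 and 315), macrophage-like (59 and 132), Schwann-like (27 and 81) and T-cell-like (8 and 19), while 843 and 423 cells stayed unnamed. No cluster met all the limits for B cells or dendritic cells. The macrophage-like cluster did pass the level limit of 0.5 for the dendritic cell list, at 0.628. Its level for the macrophage list was higher, at 1, and gave the name. The name therefore does not exclude dendritic cells from that class. The T-cell-like name rests on few UMIs of its marker list of 6 genes. The control cells of that class held 9 such UMIs, with 9 in the highest cell. The case cells held 24, with 6 in the highest cell. The median per cell was 0 in both libraries, so most cells of that class were named by their cluster and not by their own marker UMIs. The unnamed control cells were shallow, with a median of 885 UMIs. In the VSMC-like class, 713 of the control cells lay in a cluster led by Igfbp2, and 1296 and 1081 of the case cells in clusters led by LOC103690068 and Tssc4. Fibroblast-like control cells lay mostly in a cluster led by AABR07048474.1 (601 cells), and most case cells were split between it (693) and one led by Cilp (712). A cluster led by Pkhd1l1 and Vwf held 54 of the control endothelial-like cells, and the case cells were split between it (160) and one led by Fabp4 and Plvap (155). 9 kept barcode sequences occurred in both libraries. Levels are UMIs per 1000000 of the summed UMIs of a class in a library (CPM), and intervals are exact at 95% and cover counting error only.

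The 5 class II genes were found almost entirely in the macrophage-like cells. That class includes a sub-cluster, number 3 below, with few UMIs of several macrophage genes. It held 73.2% of the class II UMIs of the class in the control and 47.3% in the case group. Of all class II UMIs in kept cells, 98.8% in the control group (13993 of 14159) and 97.0% in the case group (10594 of 10923) were in the macrophage-like class, which made up 2.15% and 2.68% of the cells. B2m was spread over all classes, with 2.82% and 5.32% of its UMIs in macrophage-like cells.

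**Figure D1:**
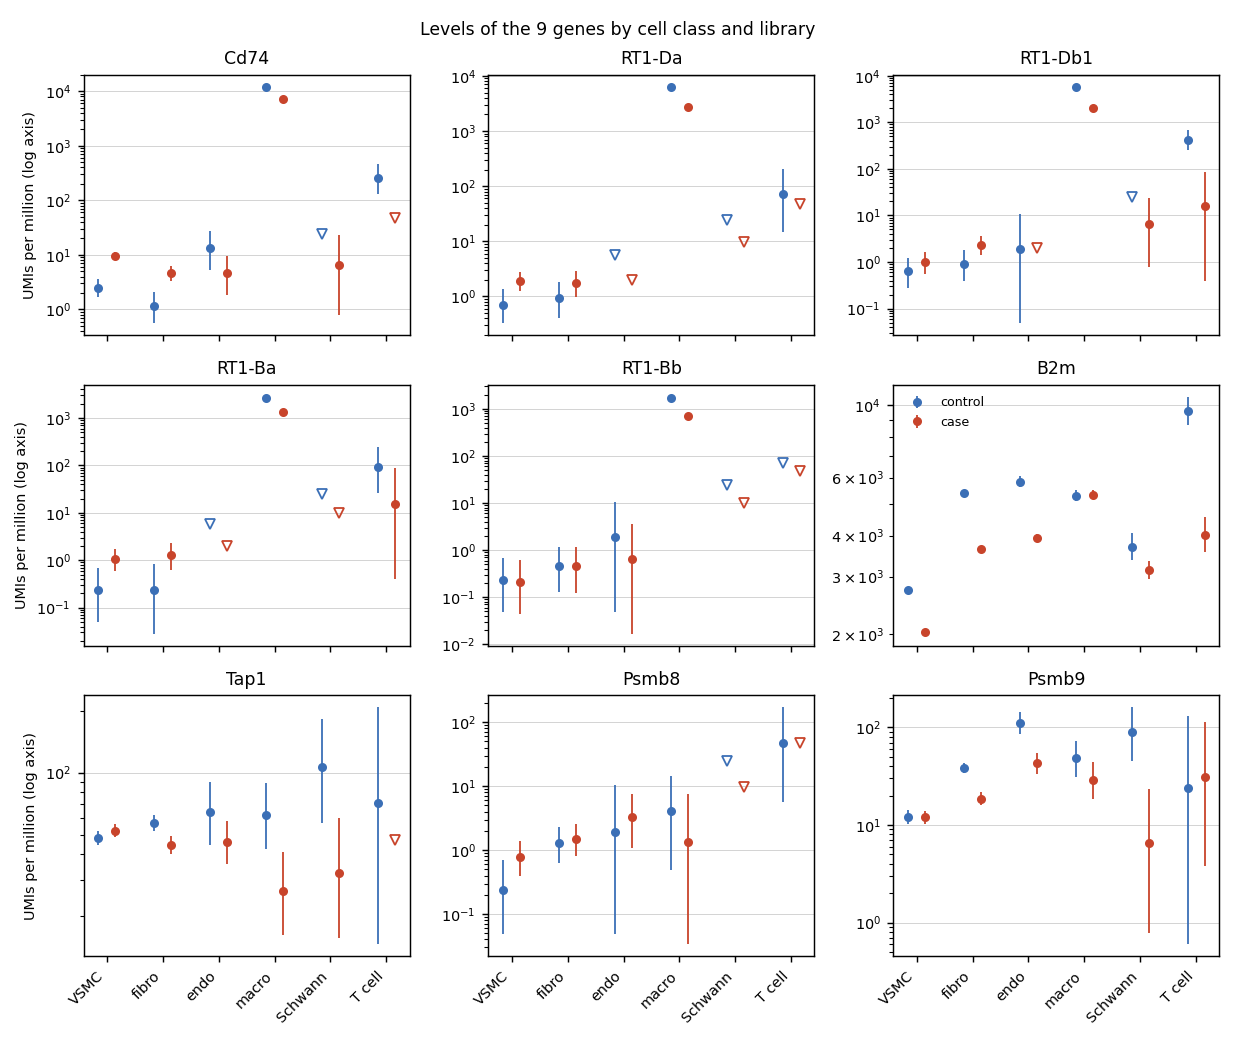
Levels of the 9 genes (CPM, log axis) in 6 named cell classes of the control (blue) and case (red) library. Bars are exact 95% Poisson intervals, and an open triangle marks the level that 3 UMIs would give where none was counted. The 5 class II genes stood highest in macrophage-like cells, at 693 to 11947, and B2m lay above 2000 in every class.

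Cd74 gave the most UMIs of the class II genes. In macrophage-like cells its level was 11947 CPM (interval 11645 to 12255) in the control and 7276 CPM (7085 to 7471) in the case group. RT1-Da followed with 6245 (6027 to 6469) and 2730 (2613 to 2850), and its partner RT1-Db1 with 5692 (5484 to 5906) and 2031 (1930 to 2135). RT1-Ba was at 2652 (2511 to 2800) and 1342 (1260 to 1427), and RT1-Bb at 1688 (1576 to 1807) and 693 (635 to 755). The 5 genes thus kept 1 order in both groups, and within each group no neighbours in that order had overlapping intervals. All 5 were lower in the case group. The counts were not divided by gene length, so this is an order of captured UMIs.

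On the log2 scale, case over control, the difference in macrophage-like cells was -0.72 (-0.77 to -0.66) for Cd74, -1.19 (-1.28 to -1.11) for RT1-Da and -1.49 (-1.58 to -1.40) for RT1-Db1. It was -0.98 (-1.10 to -0.86) for RT1-Ba and -1.28 (-1.44 to -1.12) for RT1-Bb. The sum of the 5 genes went from 28225 to 14071 CPM, a log2 difference of -1.004 (-1.04 to -0.97). With a call at 2-fold and at least 30 UMIs, 4 of the 8 members that could be assessed in this class were lower in the case group (RT1-Da, RT1-Db1, RT1-Bb and Tap1) and none was higher. Of all 4154 genes assessed in the class, 4.21% were lower and 6.81% higher by this rule. The median of the 8 members was -1.09, against -0.002 over all genes assessed.

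**Figure D2:**
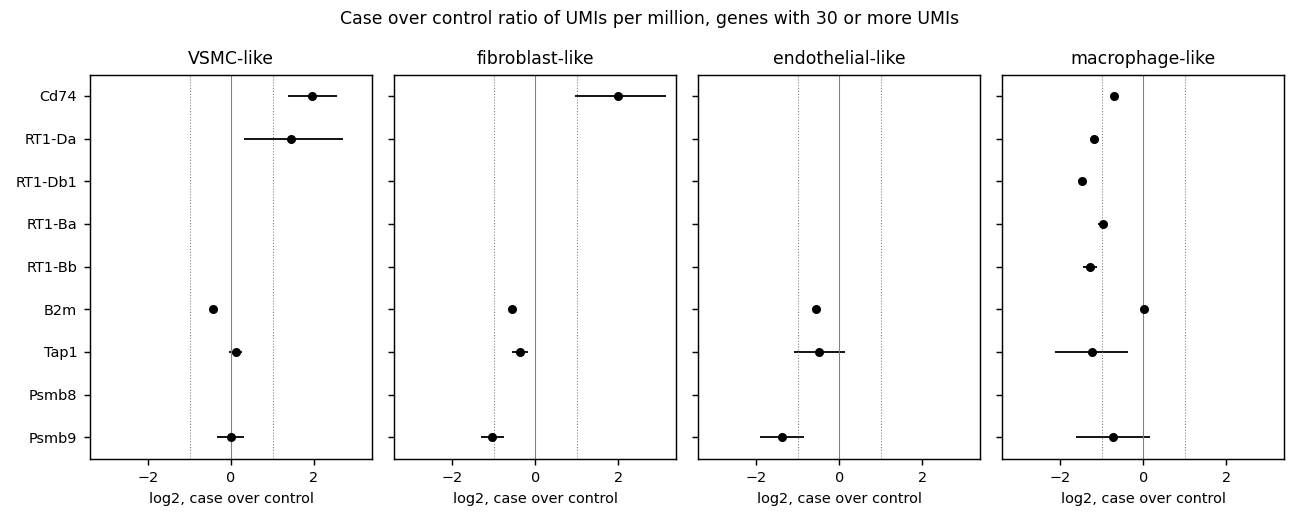
Log2 ratio of CPM, case over control, for each gene with at least 30 UMIs in a class. Bars are exact 95% intervals for counting error, and dotted lines mark 2-fold. The class II genes lay left of 0 in macrophage-like cells and Cd74 right of 0 in VSMC-like and fibroblast-like cells, and B2m lay left of 0 in all but the macrophage-like cells.

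The class II level was not a property of the macrophage-like cells as a whole. It was very uneven from cell to cell in both libraries. In the class, 6 control and 2 case cells held no UMI of the 8 macrophage marker genes. No class II UMI was counted in 20 of 59 control cells (33.9%, interval 22.1 to 47.4) and in 46 of 132 case cells (34.8%, 26.8 to 43.6), at median depths of 7115 and 5206 UMIs. The shallowest of these cells had 676 and 929 UMIs. Of the cells at 0, 5 control and 3 case cells were in sub-cluster 4 below, led by smooth muscle genes. At the other end, 22 control and 36 case cells held over 100 class II UMIs each, up to 1256 and 655. Between them lay 8 and 15 cells with 1 to 3 UMIs and 9 and 35 cells with 4 to 100. All 5 genes were detected together in 24 control and 48 case cells. The upper quartile was 459 class II UMIs per 10,000 in the control and 243 in the case cells, while the medians were 11.9 and 17.4. The 12 highest of the control cells held 76.3% of the class II UMIs of their group, and the 26 highest of the case cells 74.0% of theirs.

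Over the class as a whole, the share of macrophage-like cells with a Cd74 UMI was alike in both libraries. With each cell thinned to 1000 UMIs, it was 52.7% in the control (29 of 55 cells, interval 38.8 to 66.3) and 55.7% in the case group (73 of 131, 46.8 to 64.4). The thinning left out 4 control cells and 1 case cell. Without it the shares were 64.4% and 62.9%. Within the sub-clusters below, also without thinning, they were less alike. They were 58.3% and 36.0% in sub-cluster 1, 70.0% and 76.3% in 2 and 100% in both libraries in 3. In 4 they were 16.7% and 80.0%, and in 5 40.0% and 54.5%. The control and case intervals overlapped in each. The background for this share was the VSMC-like class, where 0.204% of control and 0.694% of case cells held a Cd74 UMI after thinning. Among the cells with a class II UMI the median was 241 per 10,000 in the control and 139.95 in the case group.

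The macrophage-like cells were divided into 5 sub-clusters, again without the antigen presentation genes, after their unevenness had been seen. Sub-cluster 1 was led by Cxcl2, Ptgs2 and F13a1 and carried most of the Lyve1, a marker of resident arterial macrophages. It held 24 control and 50 case cells. Sub-cluster 2, led by Pla2g7, Clec7a and Gpnmb, held 10 and 38 cells. Sub-cluster 3, led by Pkib, Cytip and Klrb1a, also had Plac8 and Napsa among its leading genes and held 14 and 18 cells. Its macrophage and myeloid genes were mixed. C1qa, C1qb and C1qc, complement genes of macrophages, together gave 1 UMI in the control and 1 in the case cells, and Csf1r gave 2 and 5. Mrc1 gave 3 and 2 UMIs. Of the resident macrophage genes, Folr2, Cd163 and F13a1 were at 0 in both libraries, and Lyve1 gave 0 and 3 UMIs. Lyz2 was at 2497 and 1284 CPM, Cd14 at 820 and 424, Ncf4 at 180 and 324 and Cd68 at 144 and 145, and Ptprc, a leukocyte gene, was at 583 and 737 CPM. Of the dendritic cell list, it held Clec9a (4 and 6 UMIs), Ccr7 (6 and 5) and Clec10a (6 and 3), Flt3 and Xcr1 gave 1 UMI each in the control cells, and Cd209a and Zbtb46 were at 0. These counts were too few to name the sub-cluster. Sub-cluster 4 was led by the smooth muscle genes Tagln and Myh11 and held 6 and 15 cells. Sub-cluster 5 was led by the interferon-induced genes Cmpk2, Cxcl11 and Rsad2 and held 5 and 11 cells.

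Class II levels were highest in sub-cluster 3. Class II genes took 7.37% of all its UMIs in the control and 5.60% in the case cells. Every one of its cells had a class II UMI. The values per 10,000 UMIs ran from 161 through a median of 723 to 1176 in the control cells and from 3.51 through 654 to 1161 in the case cells, so the groups overlapped over nearly their whole range. It accounted for 73.2% of the class II UMIs of control macrophage-like cells and for 47.3% in the case group, while its share of the macrophage-like cells was 23.7% (13.6 to 36.6) in the control and 13.6% (8.29 to 20.7) in the case group. Cd74 reached 28427 CPM in its control and 24426 in its case cells.

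Sub-cluster 1 was low in class II. Its class II share was 0.550% of UMIs in the control and 0.209% in the case cells, and 9 of 24 and 31 of 50 of its cells had no class II UMI. The median per 10,000 UMIs was 2.39 in the control and 0 in the case cells, and the highest cells reached 399.9 and 243. Sub-cluster 2 lay between, at 2.88% and 1.75% of UMIs, with medians of 87.7 and 81.5. Sub-cluster 5 was at 1.53% and 0.881%. In sub-cluster 4 the control cells held 2 class II UMIs in all and the 15 case cells 1087, up to 311 per 10,000 in a cell.

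**Figure D3:**
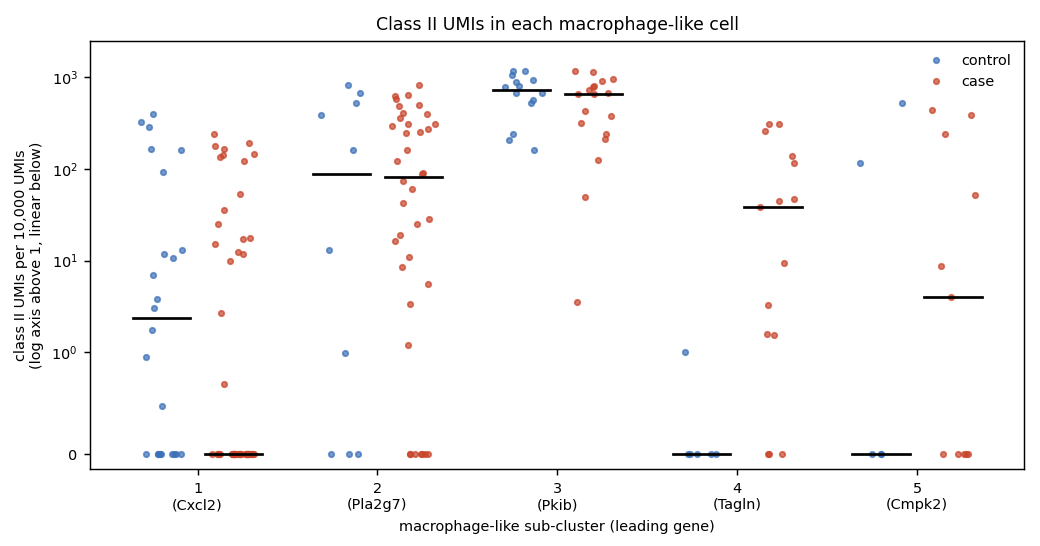
Class II UMIs per 10,000 UMIs (log axis above 1, linear below) in each macrophage-like cell of the control (blue) and case (red) library, by sub-cluster and its leading gene. Bars are medians. The cells of sub-cluster 3 stood at 3.51 or higher in both libraries, and in sub-clusters 1, 4 and 5 many cells were at 0.

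In sub-clusters 1, 2 and 3 the summed class II level was also lower in the case group. The log2 difference of the class II sum was -0.40 (-0.44 to -0.35) in sub-cluster 3, -0.72 (-0.80 to -0.64) in sub-cluster 2 and -1.40 (-1.55 to -1.24) in sub-cluster 1. These intervals do not cover the spread between cells. In sub-cluster 2 the medians per 10,000 UMIs were 87.7 and 81.5, and 3 of 10 control and 7 of 38 case cells had no class II UMI. No direction was read for its single cells. In sub-cluster 5 the sum was at -0.79 (-0.96 to -0.63), but 1 of the 5 control cells held 641 of the 741 class II UMIs. The median per 10,000 UMIs there was 0 in the control and 4.06 in the case cells, and 3 of 5 and 5 of 11 cells had no class II UMI, so no direction was read from it. Sub-cluster 4 was higher in the case cells, from 32.4 to 7296 CPM. The cells compared there also differed in macrophage genes, with C1qa found in 3 of 6 control and 12 of 15 case cells. With sub-cluster 3 left out, the difference in macrophage-like cells was -0.32 in place of -1.004, and 1 member instead of 4 passed 2-fold. The remaining sub-clusters also differed between the libraries in their shares of the cells, and the part of these shares in the result was not tested.

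Over the macrophage-like cells as a whole, Cd74 differed less between the libraries than each RT1 class II chain. This did not hold for every chain in sub-cluster 3. There RT1-Ba was at -0.13 (-0.28 to 0.02) and Cd74 at -0.22 (-0.29 to -0.14) on the log2 scale. Cd74 took 42.3% (41.5 to 43.2) of the class II UMIs of control macrophage-like cells and 51.7% (50.8 to 52.7) of those of case cells. In sub-cluster 3 its share was 38.6% and 43.6%, in sub-cluster 2 49.5% and 60.4%, and in sub-cluster 1 58.0% and 74.5%. In sub-cluster 5, by contrast, the shares were 53.8% (50.2 to 57.5) and 50.2% (45.9 to 54.4), with overlapping intervals.

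Ciita was counted rarely: 6 UMIs in the control and 5 in the case macrophage-like cells, of which 5 and 3 were in sub-cluster 3. In VSMC-like cells it gave 1 and 9 UMIs. Of the enzymes that prepare class II peptides, Lgmn, a lysosomal protease, was higher in case macrophage-like cells, at 528 and 1087 CPM (log2 1.04, 0.84 to 1.25). Ifi30, a lysosomal thiol reductase, was at 139 and 234 CPM (0.75, 0.34 to 1.17) and the protease Ctss at 163 and 251 (0.62, 0.24 to 1.01). Over the class as a whole, these 3 went opposite to the class II chains. RT1-DOa and RT1-DOb, whose products hold back peptide exchange, went with the chains, on 14 and 4 and on 14 and 3 UMIs, too few for a call. Sub-cluster 3 held 10 and 3 of these UMIs for RT1-DOa and 13 and 3 for RT1-DOb. Lgmn was also lowest where class II was highest, at 36.0 and 55.8 CPM in sub-cluster 3 against 786 and 1220 in sub-cluster 1, while Ifi30 was at 259 and 469 CPM in sub-cluster 3. Ctss was at 50.4 and 44.7 CPM in sub-cluster 3, on 7 and 4 UMIs. It was at 211 and 373 CPM in sub-cluster 1, 268 and 288 in sub-cluster 2 and 330 and 239 in sub-cluster 5. The peptide exchange genes RT1-DMa and RT1-DMb gave 0 and 1 UMI in the macrophage-like cells. Cd40, a costimulatory receptor, was at 66.6 and 31.9 CPM (log2 -1.06, -1.88 to -0.26), and Cd86 at 119 and 116.

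Outside the macrophage-like cells class II was scarce. In VSMC-like and fibroblast-like cells it was higher in the case than in the control library. Cd74 was at 2.51 CPM (1.72 to 3.55) in control and 9.69 (8.14 to 11.5) in case VSMC-like cells, a log2 difference of 1.95 (1.38 to 2.55). In fibroblast-like cells it was at 1.16 (0.554 to 2.12) and 4.59 (3.28 to 6.24), a difference of 1.99 (0.96 to 3.15). RT1-Da, on 9 and 27 UMIs, passed 2-fold in VSMC-like cells (log2 1.43, 0.30 to 2.71). It fell under the minimum of 30 UMIs without barcodes under 2000 UMIs. That setting left 774 control and 1490 case cells in the class. RT1-Da also fell under the minimum without cells holding a macrophage marker UMI, and it was at 0.75 (-0.21 to 1.76) with each cell gated on its own. By the rule, 2 of 5 assessed members were higher in VSMC-like cells, where 2.19% of 10969 genes were (6.48% were past 2-fold in either direction). In fibroblast-like cells it was 1 of 4 (Cd74), where 3.01% of 10238 genes were (7.14% in either direction). RT1-Da in the former and Cd74 in the latter (10 and 40 UMIs) reached 30 UMIs mainly through the case library, where they were higher. RT1-Db1, RT1-Ba and RT1-Bb fell under that minimum in both classes. The counts of called members thus partly follow from the minimum, and no result was read from them. Psmb9 was lower in fibroblast-like cells, as 4.13% of genes were.

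The Cd74 UMIs of VSMC-like cells sat in few cells. They were found in 24 of 1011 control cells (2.37%) and 60 of 2455 case cells (2.44%), at median depths of 12728 and 5477 UMIs. In the case group 7 cells with more than 5 Cd74 UMIs held 65 of the 137. The highest had 13. Macrophage markers were also present: the summed macrophage list of 8 genes was at 10.3 CPM in control and 13.7 CPM in case VSMC-like cells, with all 8 listed genes detected in the case cells and 7 in the control, and the lysozyme gene Lyz2, a myeloid gene, was at 0.393 and 1.98 CPM. In the cells with no UMI of that list the class II sum was 4.52 CPM (3.35 to 5.96) in the control and 12.99 (11.1 to 15.1) in the case group. The list was itself sparse, and 896 of 1011 control and 2280 of 2455 case cells held no UMI of it. Its absence therefore says little about a cell, and the source of the class II UMIs was not tested. The macrophage list in fibroblast-like cells was at 20.9 and 22.7 CPM, and without the cells that held such a UMI the difference of the class II sum went from 1.481 to 0.79 (0.11 to 1.503). Cd74 was found in 9 of 730 control (1.23%) and 20 of 1505 case (1.33%) fibroblast-like cells. In the case group 2 of them held 19 of the 40 Cd74 UMIs, and the highest had 13. After thinning to 1000 UMIs, 1 of 718 control and 0 of 1503 case cells held a Cd74 UMI.

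Endothelial-like cells held 9 class II UMIs in 64 control cells and 8 in 315 case cells. RT1-Da and RT1-Ba were at 0 in both, which allows levels of up to 5.68 CPM in the control and 1.97 CPM in the case cells. With so few UMIs no comparison was made. The 8 T-cell-like control cells together held 36 class II UMIs, and the 19 case cells held 2. No class II gene was found in more than 2 of the 8 control cells. For Cd74, 1 cell held 10 of 11 UMIs, and for RT1-Db1, 1 cell held 14 of 18. Schwann-like cells held 0 and 4.

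B2m was the member with the most UMIs in every class other than the macrophage-like cells. In VSMC-like cells it was at 2731 CPM (2703 to 2760) in the control and 2032 (2008 to 2056) in the case group, and in fibroblast-like cells at 5388 (5339 to 5437) and 3632 (3592 to 3672). Endothelial-like cells were at 5839 (5634 to 6049) and 3939 (3840 to 4040), and macrophage-like cells at 5291 (5090 to 5497) and 5324 (5160 to 5491). VSMC-like cells thus had the lowest level of these 4 classes in both libraries. In the control group endothelial-like cells were the highest, followed by fibroblast-like and macrophage-like cells, whose intervals overlapped. In the case group the macrophage-like cells were the highest. The Schwann-like cells were at 3703 and 3137 CPM, and T-cell-like cells at 9588 in 8 control cells and 4028 in 19 case cells.

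B2m was lower in the case group in all 3 structural classes. The log2 difference was -0.57 (-0.63 to -0.50) in endothelial-like, -0.57 (-0.59 to -0.55) in fibroblast-like and -0.43 (-0.45 to -0.40) in VSMC-like cells. It was 0.01 (-0.06 to 0.08) in macrophage-like cells as a whole, but their sub-clusters went in different directions. B2m was lower in sub-clusters 3 (-0.49, -0.67 to -0.31) and 5 (-0.26, -0.46 to -0.05). It was higher in sub-clusters 1 (0.22, 0.10 to 0.35) and 4 (0.38, 0.15 to 0.61), and the interval of sub-cluster 2 included 0 (0.06, -0.10 to 0.23). These stayed below 2-fold. B2m was also lower in the case cells of all 9 clusters of the structural classes, by -0.28 to -0.72 on the log2 scale. The median gene differed by -0.14 in endothelial-like, -0.08 in fibroblast-like and -0.15 in VSMC-like cells. With TMM scaling, which shifts all ratios by 0.14, 0.08 and 0.14 in this order, B2m was at -0.43, -0.49 and -0.28.

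The class I heavy chains, the partners of B2m, were lower by more. The RT1 class I genes are close copies of each other, and reads may have been split between them, so single genes are less certain than their sum. Summed over the 11 RT1 class I genes of the pathway list, VSMC-like cells had 536 CPM in the control and 256 in the case group (log2 -1.07, -1.13 to -1.01). Fibroblast-like cells had 1642 and 711 (-1.21, -1.25 to -1.16) and endothelial-like cells 2781 and 1294 (-1.10, -1.20 to -1.01). The sum was lower in the case cells of the same 9 clusters, by -0.68 to -1.33. In macrophage-like cells it was at 3613 and 2437 CPM (-0.57, -0.66 to -0.47). The largest differences of single genes were those of RT1-T24-4 in fibroblast-like cells (41.7 and 12.7 CPM) and RT1-CE10 in endothelial-like cells (565 and 179). RT1-CE4, with the most UMIs of the heavy chains, was at 217 and 86.8 CPM in VSMC-like, 678 and 264 in endothelial-like and 465 and 163 in fibroblast-like cells. RT1-A1 was at 92.1 and 42.3 CPM in VSMC-like and 258 and 106 in fibroblast-like cells, and RT1-A2 at 262 and 123 in fibroblast-like and 513 and 253 in endothelial-like cells. RT1-CE5 differed less, at 38.0 and 32.7 CPM in VSMC-like cells. RT1-CE7, with 17 and 46 UMIs, was the heavy chain gene past 2-fold in the other direction in VSMC-like cells, as was RT1-CE1, with 19 and 42 UMIs, in fibroblast-like cells. RT1-CE10 was at 91.7 and 32.7 CPM and RT1-T24-4 at 10.3 and 4.10 in VSMC-like cells. In macrophage-like cells, RT1-CE10 (692 and 327 CPM) and RT1-S3 (178 and 85.0) were lower past 2-fold, as was the inducible proteasome gene Psmb10 (44.4 and 17.3).

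Of the whole pathway list of 45 genes, 29 could be assessed in VSMC-like cells, where 1 was higher and 4 lower. In fibroblast-like cells it was 1 and 5 of 31, in endothelial-like cells 0 and 7 of 23 and in macrophage-like cells 2 and 4 of 28. The shares of all genes lower in the case group were 4.29%, 4.13%, 10.8% and 4.21% in the same order. The list medians were -0.24, -0.44, -0.80 and -0.24. In the structural classes the genes lower past 2-fold were heavy chains, apart from Erap1, which trims peptides (70.1 and 34.2 CPM), Tapbp and Psmb10 in endothelial-like cells. Chaperones of the loading complex were lower by less than 2-fold: Calr was at 562 and 336 CPM in VSMC-like cells and Pdia3 at 375 and 229.

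Tap1 was low, and the structural classes lay close together. Its level ran from 44.4 to 64.4 CPM over the 3 structural classes of both libraries. Clusters within a class differed more. Among VSMC-like cells the Tssc4-led cluster had 74.6 and 71.9 CPM (case interval 65.5 to 78.8). The LOC103690068-led cluster had 43.6 and 35.6 (case interval 31.3 to 40.2), and the Igfbp2-led cluster 41.6 and 39.5. In this order their log2 differences were -0.05, -0.30 and -0.08, with intervals that included 0. VSMC-like cells had 48.1 (44.3 to 52.0) in the control and 52.1 (48.4 to 55.96) in the case group, which is not a difference beyond counting error (log2 0.11, -0.04 to 0.27). Fibroblast-like cells had 56.8 and 44.4 (-0.36, -0.55 to -0.16), and the endothelial-like interval (-1.10 to 0.15) included 0. In macrophage-like cells it was at 62.5 (42.5 to 88.8) and 26.6 (16.2 to 41.0), on 31 and 20 UMIs. Of these UMIs, 18 and 8 were in the interferon-gene-led sub-cluster 5, where Tap1 reached 371 and 128 CPM on 5 and 11 cells. Nlrc5, the class I transactivator, gave at most 3 UMIs in any class of a library.

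Psmb9, the inducible beta-1 subunit of the proteasome, differed between the structural classes taken as wholes, but not between all of their clusters. In the control group it was at 12.1 CPM (10.3 to 14.2) in VSMC-like cells, 38.4 (34.3 to 42.7) in fibroblast-like cells and 112 (85.1 to 144) in endothelial-like cells. In the case group the same classes had 12.0 (10.3 to 14.0), 18.7 (15.9 to 21.8) and 42.7 (33.0 to 54.4), which kept the order without overlap of the intervals. Macrophage-like cells had 48.4 (31.0 to 72.0) and 29.2 (18.3 to 44.2) in the control and case group. Their interval overlapped that of fibroblast-like cells in both groups and that of endothelial-like cells in the case group only. The difference between the libraries was -1.39 (-1.92 to -0.85) on the log2 scale in endothelial-like cells, -1.04 (-1.32 to -0.76) in fibroblast-like cells and -0.01 (-0.33 to 0.32) in VSMC-like cells. In the endothelial-like cells it was the 1 member of 3 assessed that passed 2-fold, where 10.8% of all genes assessed were lower and 7.99% higher past it. Within the Vwf-led endothelial cluster the levels were 123 and 47.8 CPM, and within the Fabp4-led cluster, which held 10 control cells, 40.7 and 36.8. Within the AABR07048474.1-led fibroblast-like cluster they were 41.8 and 20.7, and within the Cilp-led one 40.8 and 17.0. The Cd55-led fibroblast-like cluster was at 15.5 (8.27 to 26.6) and 9.48 CPM (3.08 to 22.1), on 13 and 5 UMIs. These intervals overlapped those of VSMC-like cells. The Apod-led fibroblast-like cluster went the other way, at 15.1 and 39.9 CPM, on 4 and 5 UMIs.

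Psmb8, the inducible beta-5 subunit, was hardly counted. It gave 49 UMIs in all barcodes, against 1075 of Psmb9, 2679 of Tap1 and 173409 of B2m. No class held more than 13 UMIs in a library, so it could not be compared anywhere.

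The inducible share of the catalytic subunits was taken as Psmb8, Psmb9 and Psmb10 UMIs over these and their constitutive counterparts Psmb5, Psmb6 and Psmb7. It depends on how well each gene is captured, so it serves to compare classes and libraries and not as a make-up of the proteasome. Endothelial-like cells had the highest share, 43.2% (36.6 to 50.0) in the control and 27.9% (23.5 to 32.6) in the case group. Fibroblast-like cells had 21.1% (19.6 to 22.7) and 17.9% (16.3 to 19.7), macrophage-like cells 24.9% (18.9 to 31.6) and 17.6% (12.6 to 23.5), and VSMC-like cells 8.95% (8.19 to 9.75) and 13.7% (12.6 to 14.8). The share was lower in the case group in endothelial-like cells and higher in VSMC-like cells, and the intervals of the other 2 classes overlapped. Those of endothelial-like cells also overlapped with Scrublet calls removed, at 35.6% (29.98 to 41.6) and 27.8% (23.5 to 32.5), and at a clustering resolution of 0.4, at 35.0% (29.4 to 40.9) and 28.04% (23.7 to 32.7). In VSMC-like cells Psmb9 and Psmb10 were level (12.1 and 12.0, 25.1 and 25.8 CPM), and the constitutive Psmb5 and Psmb6 were lower in the case group, at 208 and 122 and at 103 and 58.8 CPM. In endothelial-like cells it was the inducible genes that differed more, Psmb10 being at 68.2 and 26.9 CPM and Psmb5 at 119 and 80.2.

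**Figure D4:**
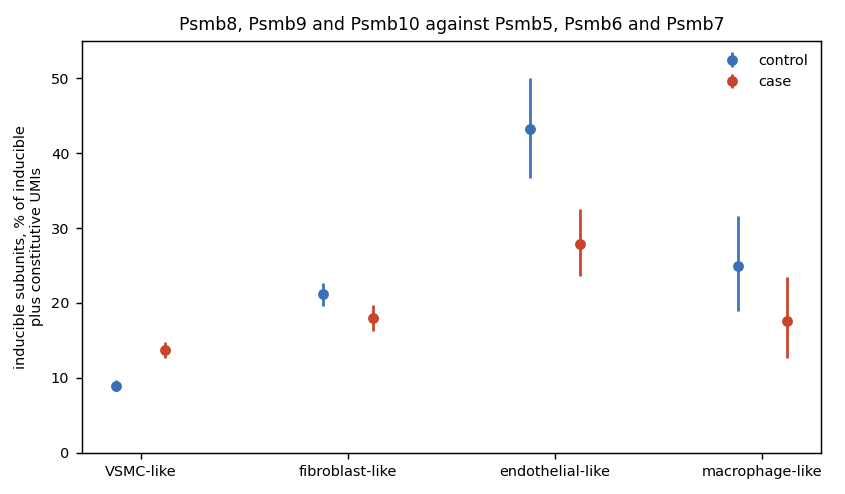
Inducible subunits (Psmb8, Psmb9, Psmb10) as a percentage of inducible plus constitutive (Psmb5, Psmb6, Psmb7) UMIs in the control (blue) and case (red) library, with exact 95% binomial intervals. Endothelial-like cells stood at 43.2% and 27.9%, and VSMC-like cells at 8.95% and 13.7%.

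Genes upstream of the class I and immunoproteasome genes were compared by the same rule. Irf1, an interferon-induced activator of these genes, was at 556 and 541 CPM in VSMC-like cells (log2 -0.04, -0.09 to 0.01) and at 629 and 405 in endothelial-like cells (-0.63, -0.83 to -0.44). None of the 6 regulators assessed in VSMC-like or fibroblast-like cells, or of the 4 in endothelial-like cells, passed 2-fold. In macrophage-like cells 1 of 4 did, the interferon-gamma receptor gene Ifngr2, on 7 and 26 UMIs. It was higher in the case group (log2 1.29, 0.05 to 2.74), as 6.81% of the 4154 genes assessed in that class were past 2-fold. Ifngr2 reached the minimum of UMIs for a ratio mainly through the case library, so no result was read from it.

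The 5 genes outside the pathway with a profile most like that of Cd74 were Csf1r (Pearson's r = 0.98), Lyz2 (0.97), Rgs1 (0.97), C5ar1 (0.97) and Tlr2 (0.97). The measure was the log2(CPM + 1) value over 12 points, each a class in a library with at least 20 cells, among 10483 genes. The points share libraries and the macrophage-like points dominate them: without these, r over the other 10 points was 0.42 to 0.74 for the 5 genes. All 5 are expressed by myeloid cells, and Csf1r is one of the markers used to name the class. Within the class Csf1r did not follow Cd74, at 14.4 and 55.8 CPM in sub-cluster 3 against 666 and 967 in sub-cluster 1. Cd74 was lower in case than in control macrophage-like cells, as were Lyz2 (3526 and 3266 CPM) and Rgs1 (175 and 120). Csf1r (442 and 657), C5ar1 (113 and 142) and Tlr2 (294 and 373) were higher.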

How the data were processed

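Single cells of digested carotid arteries were measured with droplet sequencing (10x Genomics). The authors deposited 1 table of raw UMI counts per gene and barcode for both libraries, made with Cell Ranger 3.1.0 per the file headers, with the rat build Rnor_6.0 and Seurat named in the submitters' processing notes. Barcodes were assigned to a library by their suffix, since 5656 and 3321 barcodes carry the 2 suffixes and the study gives these numbers for case and control.

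Cells were kept with at most 20% mitochondrial UMIs, within 2 SD of the library's mean log10 UMIs and genes, and within 3 robust SD of the line of genes on UMIs, which removed 579 control and 726 case barcodes. Counts were scaled to 10,000 per cell and clustered on 2000 variable genes, 30 principal components and 20 neighbours (scanpy 1.11.5, leidenalg 0.10.2, resolution 0.8), leaving out 54 antigen presentation genes. A cluster was named where its marker level reached 0.5 of the highest cluster and 1.5 times the next type, or where at least 2 of its 10 leading genes were markers of a type. At least 3 markers had to be found in 10% of its cells. The marker level gave no name where another type had more leading genes. It also gave none where depth was under 0.333 of the library median and no leading gene was a marker of the type. This left the Igfbp4-led cluster of 130 control and 26 case cells unnamed, despite its fibroblast level of 0.67. These limits were set after seeing the data. Monocyte genes were not used, because 1 of 4 was in the table. Doublets were left in: Scrublet called 6 control and 0 case cells, too few to rely on.

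Counts were summed per class and library, with exact Poisson intervals, exact conditional intervals for ratios and Clopper-Pearson intervals for shares. A ratio needed 30 UMIs, and a call 2-fold. There was no replicate, so no p-value is given. TMM scaling used edgeR 4.0.16. The steps were tested on simulated data. The members and lists were chosen with earlier results of these data known. Named were the 9 members, up to 5 genes per class of the pathway list past 2-fold by UMIs, Ciita, Nlrc5 and the 5 genes most like Cd74. Other pathway and sub-cluster genes were named after their values had been seen.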

Additional observations from a re-analysis of the deposited data

Results flagged for a closer look

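The class II sum moved in opposite directions in different classes, and the difference between classes was not tested, since each group was 1 library. Its log2 ratio, case over control, was 1.68 (1.24 to 2.14) in VSMC-like cells and 1.481 (0.88 to 2.11) in fibroblast-like cells, against -1.004 (-1.04 to -0.97) in macrophage-like cells. The levels differed by orders of magnitude: 13.9 CPM in case VSMC-like and 10.3 CPM in case fibroblast-like cells against 14071 CPM in case macrophage-like cells.

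Barcodes that did not pass the filter also held class II UMIs. The sum was at 165 CPM (142 to 190) in the 726 case barcodes and at 37.2 CPM (26.2 to 51.3) in the 579 control barcodes. This was above the level of VSMC-like cells and far below that of macrophage-like cells (14071 and 28225 CPM) of the same library. Cd74 alone was at 96.8 and 22.1 CPM. The cell types of the removed barcodes were not named, and the 2 sets were removed for unlike reasons. The mitochondrial limit was passed by 562 control and 370 case barcodes, and 4 and 493 lay outside the limits on UMIs and genes. The removed barcodes enter no comparison.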

How the results depend on the processing

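Alternatives covered depth, mitochondrial limit, doublet calls, resolution, gating, genes used for clustering, scaling and call limits, and 5 were chosen after seeing the data. No class II sum, and no ratio of a member past 2-fold, changed sign in the alternatives that gave a value. With each cell gated on its own by the marker lists, the class II log2 ratio was -0.97 in macrophage-like, 2.90 in fibroblast-like and 1.01 in VSMC-like cells, and 4 members passed 2-fold in fibroblast-like cells. Gating also changed the classes. The macrophage-like class held 33 control and 81 case cells in place of 59 and 132, and the fibroblast-like class 1028 and 1731 in place of 730 and 1505. Without macrophage-like sub-cluster 3, the class II ratio was -0.32, 1 member passed 2-fold and the inducible share of control cells was 18.8%. Without the barcodes found in both libraries, which took out 1 macrophage-like cell of each, the class II ratio was -1.05. Without cells holding a macrophage marker UMI, the class II ratio in fibroblast-like cells was 0.79, and 1 member passed 2-fold in VSMC-like cells. The VSMC-like count was also 1 without barcodes under 2000 UMIs and with a minimum of 100 UMIs, and the fibroblast-like count was 1 with TMM scaling and with a minimum of 100 UMIs. Without barcodes under 2000 UMIs the VSMC-like class held 774 control and 1490 case cells in place of 1011 and 2455. The unnamed cells numbered 438 and 1370 in place of 843 and 423. At 1.5-fold, 7 members were called in macrophage-like cells. The inducible share of control endothelial-like cells was 35.6% with Scrublet calls removed and 35.0% at resolution 0.4, settings that put 128 and 134 control cells in the class in place of 64. The cause of the other shifts was not tested.

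Without barcodes under 2000 UMIs the macrophage-like cluster missed the naming limits, so that setting gave it no value. With the same classes and cells under 2000 UMIs left out, no result moved past its limits. Ratios near 0 changed sign: Tap1 in VSMC-like cells (0.11) was -0.21 without barcodes under 2000 UMIs, Psmb9 there ran from -0.11 to 0.13, and B2m in macrophage-like cells from -0.01 to 0.10. The Tap1 value came with a smaller VSMC-like class, since without those barcodes the clusters were formed anew. The part of this change in the Tap1 ratio was not tested. The share of macrophage-like cells with Cd74 ran from 41.5% to 66.0% in the control and from 47.5% to 62.9% in the case group. No paired analysis was possible because each group was 1 pooled library.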

Other observations

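The unnamed cells, which enter no comparison, had 34 class II UMIs in 843 control cells and 29 in 423 case cells. Their B2m level was 3590 CPM in the control and 2366 CPM in the case group. A cluster led by Pcsk1 and Vcam1, with 23 control and 185 case cells, had B2m at 4108 and 2538 CPM and Psmb9 at 49.5 and 21.9 CPM.

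RefSeq places the starts of Tap1 and Psmb9 457 bases apart and facing away from each other on chromosome 20 (GRCr8). Tap1 was at 48.1 CPM in control VSMC-like and 64.4 in control endothelial-like cells, and Psmb9 was at 12.1 and 112.

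In the 27 control Schwann-like cells Tap1 was at 106 CPM (56.6 to 182) and Psmb9 at 89.9 CPM (44.9 to 161), on 13 and 11 UMIs, and in the 81 case cells at 32.6 (15.6 to 60.0) and 6.52 CPM (0.790 to 23.6), on 10 and 2 UMIs.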
